A study of Caenorhabditis elegans with 2 samples.

Results

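The proteasome subunit genes are the 33 protein-coding genes of the Ensembl WBcel235 annotation whose symbol begins with pas-, pbs-, rpt- or rpn-, out of 19973 on the nuclear chromosomes. Genes entered the set by symbol, and the set itself was chosen with earlier results of these data known. Peaks at their promoters were read from ChIP-seq of an eGFP-tagged R02D3.7 protein (gene rcat-1 in the annotation) in whole L2 larvae of Caenorhabditis elegans, with 2 biological replicates in 1 group. Both replicates came from strain OP218, which carries the unc-119(ed3) mutation on chromosome III and the transgene wgIs218, and were mixed-sex pools of animals. The tagged protein is made from that transgene, and signal is averaged over all tissues of the larva. Control reads were not analysed here, and the part of open promoter chromatin in the signal was not tested.

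The proteasome degrades proteins that carry ubiquitin chains. Its 20S core is a barrel of outer alpha rings (pas- genes) and inner beta rings (pbs- genes), and some of the beta subunits cut peptide bonds. The 19S regulatory particle sits on the barrel and has a base and a lid. The base holds a ring of AAA ATPases (rpt- genes) that unfold substrates, the scaffolds RPN-1 and RPN-2 and the ubiquitin receptors RPN-10 and RPN-13. The lid is a set of structural subunits around RPN-11, the enzyme that cuts ubiquitin chains from the substrate. In C. elegans the factor SKN-1 is known to raise transcription of proteasome genes when the proteasome is impaired.

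Each gene was given a promoter window from 1000 bp upstream to 200 bp downstream of its annotated 5′ ends, and the summit of highest signal in that window was taken from each deposited list. The set kept by the irreproducible discovery rate (IDR) step held 542 peaks, which were the 542 regions of highest signal among 30000 candidates called on the joined reads of both replicates. Each replicate also had its own list of 30000 candidates. The signal is the value the authors' peak caller gave each region, in units that are not stated, so it is used to rank regions within a list and lists are set side by side without a common scale. Read depth is unknown. With 1 group there is no contrast to test over samples, and all counts below are descriptions of these peak lists.

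Proteasome genes with an IDR summit were mostly genes of the lid. An IDR summit lay in the window of 6 of the 33 genes (18.2%, 95% Wilson interval 8.61 to 34.4), against 3.47% of all protein-coding genes. By complex, these were 5 of 9 lid genes (55.6%, interval 26.7 to 81.1), 0 of 10 base genes and 1 of 14 core genes (7.14%, interval 1.27 to 31.5). The 5 lid genes were rpn-3, rpn-5, rpn-8, rpn-11 and rpn-12, and the core gene was pas-7. For the base, 0 of 10 leaves room for a share of 30% (3 counts of 10). Its upper Wilson bound is 27.8%, so its interval overlaps that of the lid. These intervals cover counting error only, and genes are not replicates. The difference between the complexes was not tested.

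**Figure D1:**
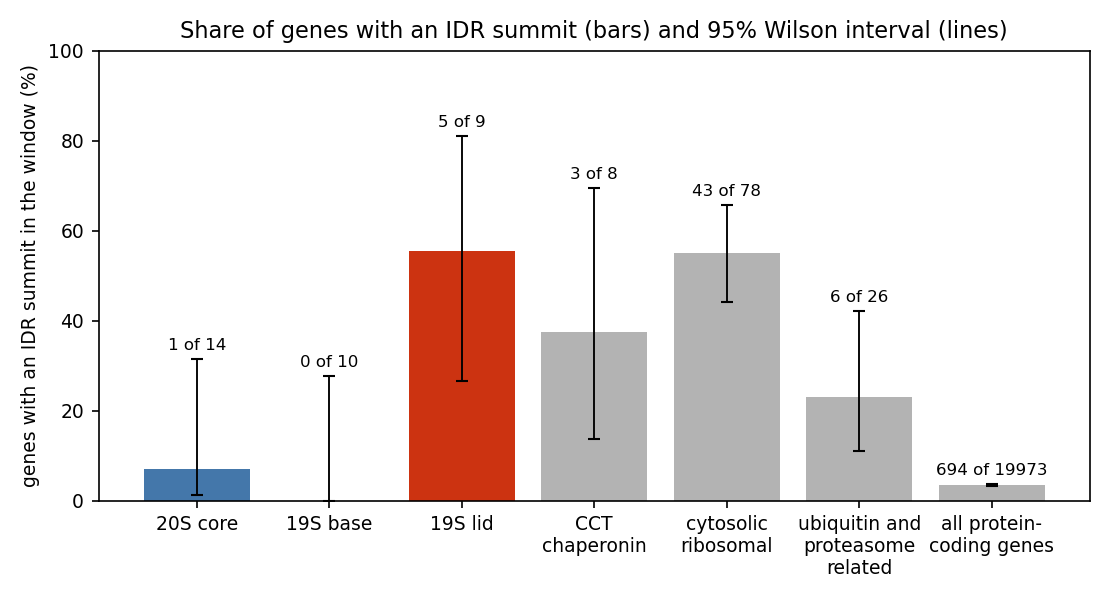
Share of genes with an IDR summit in the promoter window, in percent, for the 3 parts of the proteasome, for 3 comparison lists and for all protein-coding genes; lines are 95% Wilson intervals, which cover counting error only, and the fraction above each bar gives the genes. The lid stands at 5 of 9, the base at 0 of 10 and the core at 1 of 14.

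The strongest summit at a proteasome gene lay at rpn-3, which encodes a structural lid subunit. The peak (III, 8446979 to 8447308 on ce11) had a signal of 99.9 and rank 187 in the joined list. In replicate 1 it had a signal of 81.2 and rank 162, and in replicate 2 a signal of 16.5 and rank 387. Its rank was therefore high in both lists, and higher in replicate 1. The summit lay 209 bp upstream of rpn-3, between that gene and hsp-110, a chaperone gene of the Hsp110 family read in the opposite direction, whose 5′ end is 235 bp away.

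The next peak was at rpn-8, the partner of the RPN-11 enzyme in the lid. It covered I, 4174916 to 4175245, with a signal of 96.5 and rank 192 in the joined list. Replicate 1 gave it a signal of 61.6 and rank 224, and replicate 2 a signal of 36.3 and rank 134. No other proteasome gene ranked as high in replicate 2. The summit lay 238 bp upstream of rpn-8 and 307 bp upstream of mrps-6, which encodes a protein of the small mitochondrial ribosomal subunit.

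The peak at rpn-12, another structural lid gene, covered II, 11652816 to 11653145. Its signal was 67.6 in the joined list (rank 279), 48.08 in replicate 1 (rank 299) and 17.1 in replicate 2 (rank 360). The 3 ranks lay close together. The summit was 143 bp upstream of rpn-12 and 252 bp upstream of rad-23, which encodes a shuttle that carries ubiquitin-tagged proteins to the proteasome. The pair of genes thus shares 1 peak, and the data do not say to which of them it belongs.

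At rpn-11, the gene of the deubiquitinating enzyme, the peak covered II, 4044397 to 4044726, with a joined signal of 58.2 and rank 340. Among the 6 genes with an IDR summit its ranks in the replicates were furthest apart. Its signal was 48.6 in replicate 1 (rank 297) and 11.7 in replicate 2 (rank 1509). The summit lay 16 bp upstream of an rpn-11 5′ end and in no other gene's window. The neighbour upstream, K07D4.2, lies on the same strand 225 bp away.

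At rpn-5, a structural lid gene, the peak covered II, 4698284 to 4698613, with a joined signal of 47.4 and rank 424. Replicate 1 gave a signal of 31.1 (rank 491) and replicate 2 a signal of 21.1 (rank 257). The joined summit lay 22 bp upstream of rpn-5, and the summit of replicate 2 lay 99 bp from it, toward scc-1, the gene of a cohesin subunit on the other strand. A further joined region of rank 3588 and signal 21.1 had its summit 227 bp upstream of rpn-5 and 67 bp upstream of scc-1. The joined list thus placed a summit near each 5′ end, while each replicate's list had only 1 summit in the rpn-5 window.

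The gene pas-7, an alpha subunit of the core, had the weakest of these peaks (II, 10099872 to 10100201). Its joined signal of 40.7 put it at rank 514, close to the lowest signal in the IDR set, 39.1. Replicate 1 gave 20.9 (rank 978) and replicate 2 gave 18.7 (rank 302). Here replicate 2 gave the higher rank, the reverse of rpn-3 and rpn-11. The summit lay 183 bp upstream of pas-7 and 273 bp upstream of puf-12, a gene of the PUF-domain family, and inside ZK945.12, annotated as a short non-coding RNA gene.

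**Figure D2:**
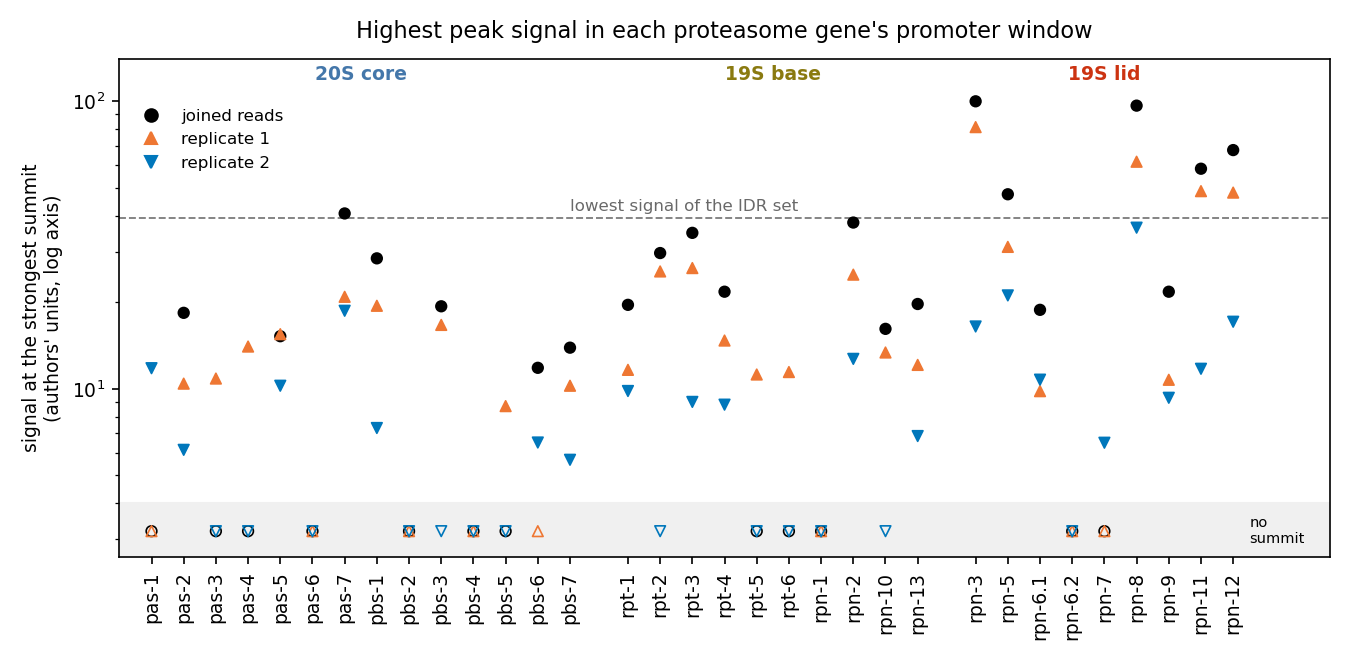
Signal of the strongest summit in each gene's promoter window (log axis, authors' units) in the joined list and in each replicate's list, for all 33 genes ordered by complex; open symbols in the shaded band mark genes with no summit in that list, and the dashed line is the lowest signal of the IDR set, 39.1, which applies to the joined values only. The 5 lid genes lie between 47.4 and 99.9 in the joined list, and no base gene reaches the line.

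Sequences reaching 50 bp to each side of the summits are shown for the lid and core genes with an IDR summit, except rpn-8, and for the base genes rpn-2 and rpt-2, which fell below the set. They are read 5′ to 3′ on the strand of the proteasome gene, from the RefSeq copy of the ce11 assembly. Capitals mark matches, on either strand, to 5 words. The word ACGCGC, the word GACGCA and the word CGTAAA, with the longer word CGTAAATC that holds it, were frequent at summits in an earlier analysis of these peaks. The word TTGTCAT was picked after these sequences were seen.
rpn-12, chrII:11652931-11653031, plus strand: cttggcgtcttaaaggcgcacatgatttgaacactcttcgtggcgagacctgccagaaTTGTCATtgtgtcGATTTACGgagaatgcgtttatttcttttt
pas-7, chrII:10099987-10100087, minus strand: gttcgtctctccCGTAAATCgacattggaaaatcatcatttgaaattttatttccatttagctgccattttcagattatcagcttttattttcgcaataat
rpn-11, chrII:4044512-4044612, minus strand: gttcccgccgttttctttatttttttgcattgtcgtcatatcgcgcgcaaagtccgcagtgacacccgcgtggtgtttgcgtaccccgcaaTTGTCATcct
rpn-3, chrIII:8447094-8447194, plus strand: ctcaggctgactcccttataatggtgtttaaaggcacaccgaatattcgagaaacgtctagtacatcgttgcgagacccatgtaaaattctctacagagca
rpn-5, chrII:4698399-4698499, minus strand: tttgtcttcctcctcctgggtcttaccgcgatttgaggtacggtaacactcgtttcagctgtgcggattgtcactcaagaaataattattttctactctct
rpn-2, chrIII:6198794-6198894, plus strand: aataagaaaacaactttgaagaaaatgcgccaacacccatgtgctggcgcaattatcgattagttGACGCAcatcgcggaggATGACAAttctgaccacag
rpt-2, chrV:6017768-6017868, minus strand: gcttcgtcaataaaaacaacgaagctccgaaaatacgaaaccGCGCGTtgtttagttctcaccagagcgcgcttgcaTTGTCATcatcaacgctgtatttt

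The word CGTAAATC lay within 50 bp of the summit at 3 of the 6 genes with an IDR summit: rpn-8, rpn-12 and pas-7. All 542 IDR summits held it in 20.8% of windows, and the 8660 other joined candidates in promoter windows held it in 0.624%. None of the 15 proteasome genes with a joined summit below the IDR set held it there. The word lay 34.5 bp from the summit at pas-7, 24.5 bp at rpn-12 and 7.5 bp at rpn-8, measured from its centre. It was written on the strand of pas-7, and at rpn-8 and rpn-12 on the strand of the neighbours mrps-6 and rad-23. In all 3 it was preceded by C and followed by GACA, a run of 13 bases that 21 of the 542 IDR windows held (3.87%). That run was noticed in these sequences and was not searched for beforehand.

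In promoters taken as 250 bases before to 50 bases after the most upstream 5′ end, CGTAAATC occurred at 3 of 33 proteasome genes, the same 3, against 1.74% of all protein-coding genes of the annotation. Its first 6 bases, CGTAAA, occurred at 6 of 33 promoters (rpn-3, rpn-8, rpn-12, pas-7, pas-6 and rpt-3) against 12.9% of all. The peaks of rpn-3, rpn-5 and rpn-11 held none of the 4 words within 50 bp of the summit, as did 45.0% of all IDR windows. The words came from the same peaks, so their presence is no independent evidence. GC content within 50 bp of the summit was 43.6% at rpn-3, rpn-5 and rpn-12, 47.5% at rpn-8, 51.5% at rpn-11 and 31.7% at pas-7, against a median of 45.5% (quartiles 40.6 and 51.5) over the IDR set. Only pas-7 lay below the lower quartile.

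Base genes had no IDR summit, and 3 had regions below the set but among the 1000 highest joined regions. The scaffold gene rpn-2 came closest. Its joined signal was 37.8 (rank 568), with 24.9 in replicate 1 (rank 664) and 12.7 in replicate 2 (rank 1039). Its summit lay 340 bp upstream of rpn-2 and 430 bp upstream of C23G10.7, and held the word GACGCA. The ATPase gene rpt-3 followed at a joined signal of 34.8 (rank 649), with 26.3 in replicate 1 (rank 604) and 9.004 in replicate 2 (rank 5196). That summit lay 615 bp upstream of rpt-3, in the 3′ UTR of the gene before it, chtb-2. The ATPase gene rpt-2 had a joined signal of 29.6 (rank 918), 25.6 in replicate 1 (rank 638) and no summit in replicate 2. Its summit lay midway between rpt-2 (149 bp) and aps-1 (152 bp), a gene of a clathrin adaptor subunit, and held ACGCGC.

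The other base genes were lower. The ATPase genes rpt-4 and rpt-1 had joined signals of 21.8 and 19.6 (ranks 3157 and 5083), and the ubiquitin receptor genes rpn-13 and rpn-10 had 19.7 and 16.2 (ranks 4932 and 11390). At rpt-1 a further region of nearly the same signal, 19.5, had its summit 119 bp upstream. The summit of rpn-10 lay 987 bp upstream, in a coding exon of mrpl-9. That of rpt-4 lay in an intron, inside rpt-4 and nfyc-1, and 337 bp upstream of a 5′ end within rpt-4. The ATPase genes rpt-5 and rpt-6 had a summit in replicate 1 only, with signals of 11.2 and 11.4. The scaffold gene rpn-1 had none in any list. In the list of replicate 1 all 6 ATPase genes had a candidate, against 42.6% of all protein-coding genes. In that of replicate 2 there were 3 of 6, near the 41.9% of all protein-coding genes.

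Of the core genes after pas-7, pbs-1 ranked highest. This beta subunit gene had a joined signal of 28.4 (rank 1034), 19.4 in replicate 1 (rank 1233) and 7.31 in replicate 2 (rank 11166), at a summit 332 bp upstream, between it and K08D12.3. The other core genes in the joined list were pbs-3 (signal 19.4), pas-2 (18.4), pas-5 (15.2), pbs-7 (13.9) and pbs-6 (11.8), of which the last was near the lowest signal of the list, 11.6. The summits of pbs-3 and pas-5 lay inside their own genes, in an intron and a coding exon. The genes of catalytic subunits are pbs-1, pbs-2 and pbs-5. Of these, pbs-2 had no summit in any list and pbs-5 had 1 in replicate 1 only (signal 8.71, rank 23245).

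The genes pas-3 and pas-4 had a summit in replicate 1 only, with signals of 10.9 and 14.02, and pas-1 in replicate 2 only, at 11.8 and rank 1470. The genes pas-6 and pbs-4 had none. An IDR peak of rank 403 and signal 49.97 lay 1112 bp upstream of pas-5, outside the promoter window of any protein-coding gene, though the region reached the window of pas-5. With region overlap in place of the summit, or with a window of 2000 bp, 2 of 14 core genes would be counted, and the share of all protein-coding genes would rise from 3.47% to 3.64% and 4.22%.

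Not all lid genes had strong peaks. The gene rpn-9, a structural subunit, had a joined signal of 21.8 (rank 3158), 10.7 in replicate 1 and 9.31 in replicate 2, at a summit 193 bp upstream. The gene rpn-6.1, whose product clamps the lid to the core, had a joined signal of 18.8 (rank 6128), 9.81 in replicate 1 and 10.8 in replicate 2, at a summit in its own intron. The gene rpn-7 had a summit in replicate 2 only (signal 6.49, rank 15899), and rpn-6.2, a paralog of rpn-6.1, had none in any list. The small lid subunit gene dss-1 is outside the symbol rule. It had a joined signal of 16.8 (rank 9837), 12.7 in replicate 2 and no summit in replicate 1, so that with it 5 of 10 lid genes had an IDR summit.

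Over all 33 genes, 21 had a summit in the joined list, 25 in that of replicate 1 and 20 in that of replicate 2, against 43.0%, 42.6% and 41.9% of all protein-coding genes. As shares these are 63.6%, 75.8% and 60.6%. Another 7 had a summit only in a replicate list, and 5 had none. With genes that lacked a joined summit placed lowest, the median joined signal was 18.4 over all 33, 47.4 over the lid and 19.6 over the base. In the core 7 of 14 had no summit, so no median could be given. Over all protein-coding genes the median gene had no joined summit. Of these genes 15.1% lay above 18.4 and 2.80% above 47.4. Among the 1000 highest joined regions, 9 of 33 genes had a summit (5 lid, 3 base, 1 core), against 5.13% of all genes.

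**Figure D3:**
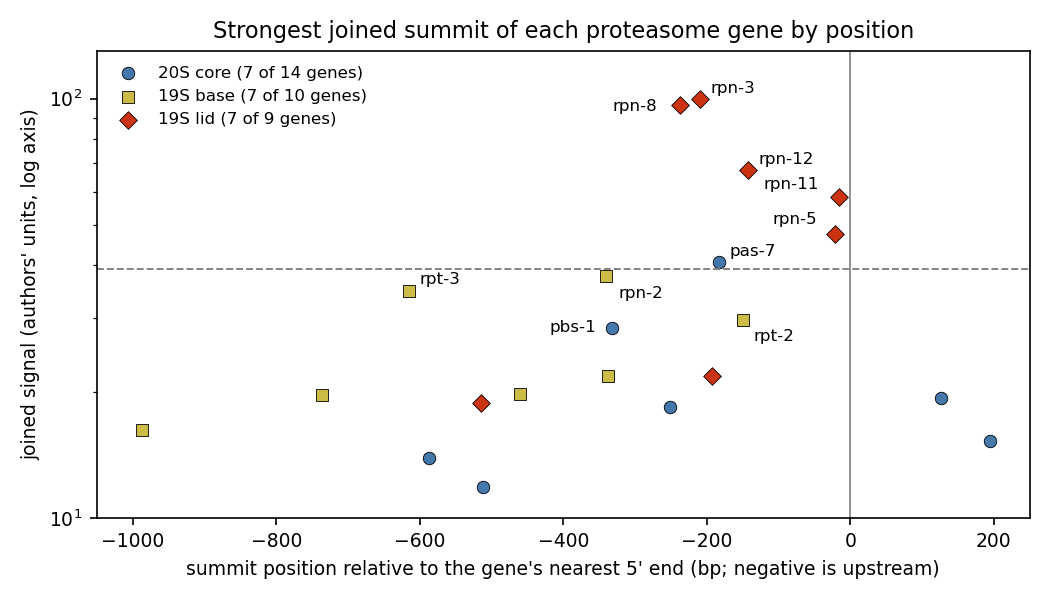
Joined signal (log axis, authors' units) of each gene's strongest joined summit against its distance from the nearest 5′ end of that gene, for the 21 genes that have one; the dashed line is the lowest signal of the IDR set, 39.1. The 6 summits above the line lie from 238 to 16 bp upstream, and weaker ones are spread over the window.

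The 6 IDR summits lay 16 to 238 bp upstream of a proteasome gene, with a median of 163 bp, against a median of 211 bp upstream over all genes with an IDR summit. All 6 were between protein-coding genes. For 5 of the 6 (all but rpn-11) the summit also lay in the window of a gene read in the opposite direction, with 294 to 545 bp between the 5′ ends. Over the whole set, 236 of 454 IDR peaks in promoter windows (52.0%) were in the windows of 2 or more genes. The nearest upstream gene was divergent and within 1000 bp for 20 of the 33 proteasome genes (60.6%), against 17.5% of all protein-coding genes and 56.6% of genes with an IDR summit. By complex this arrangement was found at 7 of 9 lid, 4 of 10 base and 9 of 14 core genes. Of the 9 core genes with this arrangement, only pas-7 had an IDR summit. Whether the arrangement bears on the presence of a summit was not tested. A nearest upstream gene on the same strand within 1000 bp was found at 2 of 9 lid, 4 of 10 base and 3 of 14 core genes. Over all protein-coding genes it was found at 5694 of 19973. Whether the windows of such genes hold their own promoters was not tested.

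When each summit was given only to the gene with the nearest 5′ end, the same 6 genes kept theirs. The share of all protein-coding genes fell from 3.47% to 2.25% under that rule. Chromosome II held 4 of the 6 (pas-7, rpn-5, rpn-11 and rpn-12) among its 7 proteasome genes. On II 3.91% of all genes had an IDR summit, a share between the 2.54% of V and the 5.68% of III. Outside II, 2 of 5 lid genes had an IDR summit, against 3.47% of all protein-coding genes on all chromosomes. Chromosome I carries 10 proteasome genes, of which 1 (rpn-8) had one, against 4.66% of all genes on I. No proteasome gene lies on X.

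The replicates were then taken alone, each cut at its 542 highest regions. Replicate 1 gave 5 of 33 genes, all in the lid, against 3.46% of all protein-coding genes. Replicate 2 gave 5 of 33, against 2.77%, namely 4 lid genes and pas-7. The genes rpn-3, rpn-5, rpn-8 and rpn-12 were in both, against 2.25% of all genes. At this cut rpn-11 was found in replicate 1 only and pas-7 in replicate 2 only. Both were among the 542 highest regions of the joined list, which are the IDR set. At the 6 IDR peaks, replicate 1 had a median signal of 48.4 and replicate 2 one of 17.9, but their scales may differ. Of the 21 joined regions, 16 overlapped a region of both replicates by at least 1 bp, 4 one of replicate 1 alone and 1 one of replicate 2 alone. The joined list was called on the same reads, and no share over all joined regions is given here to set beside these counts.

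**Figure D4:**
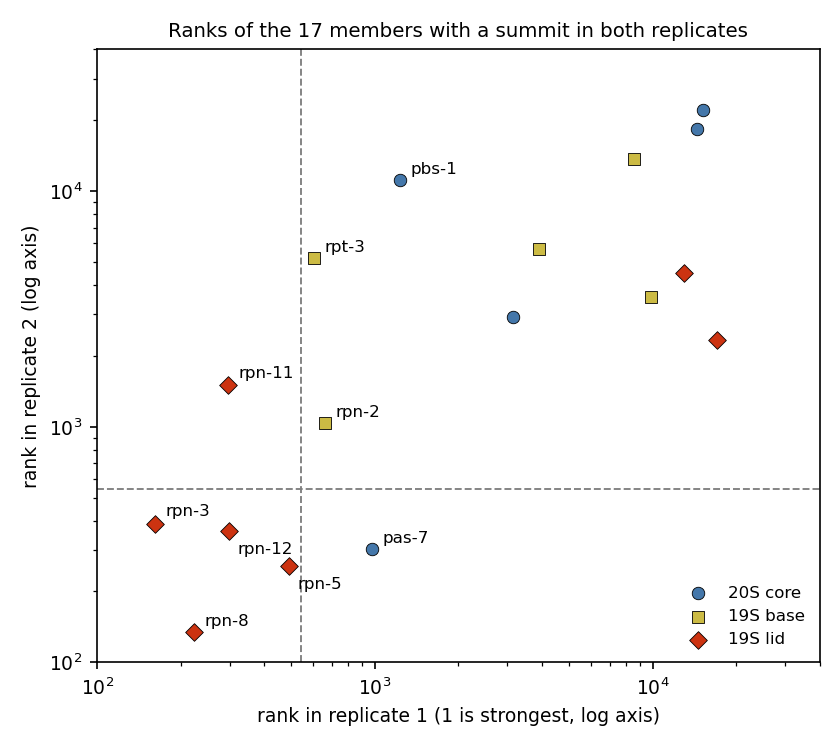
Rank of each gene's strongest summit in the list of replicate 1 and in that of replicate 2 (log axes, 1 is strongest), for the 17 proteasome genes with a summit in both; the 2 summits need not be the same region, and dashed lines mark rank 542. Only rpn-3, rpn-5, rpn-8 and rpn-12 lie inside both lines.

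Genes that work with the proteasome were taken from a list of 26. An IDR summit lay at 6 of them (23.1%), against 3.47% of all protein-coding genes, and a joined summit at 16 (61.5%), against 43.0%. The highest were ubq-2, a ubiquitin fusion gene (signal 1199, rank 3), cdc-48.1, the gene of the AAA ATPase that extracts ubiquitin-tagged proteins (308), and ubql-1, a ubiquilin shuttle gene (261). Next were ufd-3, a cofactor of CDC-48 (67.8), rad-23 (67.6, at the peak shared with rpn-12) and ecps-1, whose product is related to the proteasome adaptor Ecm29 (62.8). The gene of the proteasome-bound deubiquitinase usp-14 fell below the set with a joined signal of 32.5 (rank 739), 14.05 in replicate 1 and 20.04 in replicate 2. Of the genes that regulate proteasome levels, skn-1 had a joined signal of 17.9 (rank 7572), png-1 had a summit in replicate 1 only (8.76) and ddi-1 had none.

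For comparison, 3 of 8 genes of the CCT chaperonin (37.5%, interval 13.7 to 69.4) and 43 of 78 genes with rpl- or rps- symbols (55.1%, interval 44.1 to 65.7) had an IDR summit. Signals at the strongest of these, 260 at cct-8 and 1374 among ribosomal protein genes, exceeded the highest at a proteasome gene, 99.9. Among the 271 IDR peaks of highest signal, 2 of 33 proteasome genes had a summit, rpn-3 and rpn-8 (6.06%), against 1.89% of all protein-coding genes. The lid genes therefore had IDR peaks of the middle and lower ranks of the set, from 187 to 424.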

How the data were processed

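Tagged R02D3.7 was profiled by ChIP-seq in 2 biological replicates, numbered as in the labels. The deposited narrowPeak lists hold a signal value per region, made by the authors in a unit that is not stated. Per the notes deposited beside the samples, candidates were called on each replicate and on joined reads against a control. No caller or aligner is named in the sources used here. The ce11 lists were used and no coordinates were converted. Genes came from Ensembl release 115 (29784 5′ ends, mitochondrial genes left out) and sequence from the RefSeq copy of the assembly. Coordinates are 1-based. RPN-10 was counted with the base.

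Assignment to windows was tested on simulated summits. Wilson intervals (95%) and the limit at 0 (3 counts) cover counting error only. Members, lists and words were chosen with earlier results of these data known. All members were named, with genes sharing an IDR summit with one and list members that had one. Others, and TTGTCAT, were chosen after their values were seen. The alternatives tried were other windows, other 5′ ends, 1 gene per summit, region overlap, a stricter set, each replicate alone, rpn-10 counted with the lid and rpn-6.2 left out. Python 3.11.15, pandas 2.3.3 and numpy 2.4.6 were used.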

Additional observations from a re-analysis of the deposited data

How the results depend on the processing

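Read depth is unknown, and regions with a joined signal near 11.6 lie at the end of the lists, so that an absent summit means only that none was among the 30000 regions kept. Of 36 alternatives of the 4 main counts of genes (all 33, lid, base and core), 30 stayed within 1.5 times the main count. Several of these could not move a count. Neither rpn-10 nor rpn-6.2 had an IDR summit, and the base count of 0 could not fall under a narrower rule. The count of lid genes was 5 of 9 under each window, 5′ end, gene-per-summit and overlap rule. The share of all protein-coding genes was 2.99% with 500 bp upstream and 4.22% with 2000 bp. It was 3.36% with the most upstream 5′ end only, 2.25% with 1 gene per summit and 3.64% with region overlap. The lid count was 5 of 10 with rpn-10 added to the lid and 5 of 8 with rpn-6.2 left out. The count of base genes was 0 in each alternative. With the 271 IDR peaks of highest signal alone, the counts were 2 for all proteasome genes, 2 for the lid and 0 for the core, while the share of all protein-coding genes fell from 3.47% to 1.89%. The core count was 2 with 2000 bp upstream and with region overlap, through pas-5. With each replicate left out in turn, the count was 5 both times for all proteasome genes. It was 4 to 5 for the lid, 0 to 1 for the core and 0 for the base. The share of all protein-coding genes was then 2.77% without replicate 1 and 3.46% without replicate 2. The median joined signal over the 33 genes, 18.4 in the main setting, was 19.7 with 2000 bp upstream, 19.4 with region overlap and 15.2 with the most upstream 5′ end only. With 500 bp upstream and 100 bp downstream, and with the nearest gene only, most of the genes had no joined summit and no median could be given. No paired analysis was possible because the labels give 1 group.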

Other observations

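The word TTGTCAT was noticed in the summit sequences of rpn-2, rpn-11, rpn-12 and rpt-2 and then counted on both strands. It ends in GTCAT, which is known as a core of the sites of SKN-1 in C. elegans. Of the 542 windows reaching 50 bp to each side of an IDR summit only 4 held it (0.738%), and those of rpn-11 and rpn-12 were 2 of these 4. Among the 15 proteasome genes with a joined summit below the IDR set, 3 held it (rpn-2, rpt-2 and pbs-1), against 1.97% of the 8660 other joined candidates in promoter windows. At rpn-12 the word lay 11 bp from the summit and at rpn-11 44 bp, so that only the former was counted when 30 bp to each side were searched, and both with 100 bp. In promoters of 300 bases it occurred at 8 of 33 proteasome genes (24.2%), against 7.01% of all protein-coding genes and 5.62% of genes with an IDR summit. The 8 were pas-2, pas-6, pbs-1 and pbs-6 in the core, rpn-2 and rpt-2 in the base, and rpn-11 and rpn-12 in the lid. This share and the counts at summits include rpn-2, rpt-2, rpn-11 and rpn-12, on which the word was picked. They are therefore raised by that choice. The word was present in each part of the proteasome, and its relation to the places of IDR summits was not tested. It was chosen on these sequences, and a match is no measure of binding by SKN-1.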
